A study of Homo sapiens with 6 samples.

Results

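Axonal transport motors are the microtubule-based proteins that carry organelles and vesicles along axons, and 10 of their genes are described here: KIF5A, KIF5C, KLC1, KIF1A, KIF1B, KIF3A, KIF3C, KIF21A, KIF21B and DYNC1I1. They were chosen by gene name from the 32575 genes listed in the deposited tables. Each of the 10 names matched 1 gene, and all 10 were among the 28388 genes tested. Messenger RNA had been sequenced from SH-SY5Y, an established human neuroblastoma line of neuroblast character. The cells had gone through lentiviral transduction, puromycin selection and 2 to 3 weeks of culture. The CSA knockdown cells carried a short hairpin RNA against CSA (gene ERCC8), the CSB knockdown cells one against CSB (gene ERCC6), and the control cells a control hairpin, so all 3 groups had been transduced and selected. The labels' genotype field calls the control cells WT, and the sample titles call the knockdown cells CSAmut and CSBmut. CSA and CSB act in transcription-coupled DNA repair, and loss of either causes Cockayne syndrome, a disease of the nervous system among other tissues. There were 2 libraries in each group. The labels do not say whether these came from separate cultures or separate transductions, so the p-values measure the spread between libraries, which may be technical.

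Kinesins of this set use ATP to walk along microtubules, mostly towards the growing plus ends, and in axons that is away from the cell body. Kinesin-1 is built of a pair of KIF5 heavy chains and a pair of light chains such as KLC1, the kinesin-3 motors KIF1A and KIF1B carry vesicle precursors, and kinesin-2 pairs KIF3A with KIF3B or KIF3C. Cytoplasmic dynein walks the other way, and its intermediate chains, DYNC1I1 and DYNC1I2, join the motor to the activator dynactin. Because motors are built from interchangeable subunits, the make-up of a family is described below beside the level of each gene.

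The promoter stretches of KIF5C and DYNC1I1 are shown because these were the members that passed the test with opposite signs in the comparisons of CSA knockdown and CSB knockdown with control. Both run 5′ to 3′ on the plus strand and come from RefSeq on GRCh38.p14. KIF5C is given at chr2:148874977-148875226, which is 250 bases ending 24 bases before the gene start in the deposited tables, and DYNC1I1 at chr7:95772304-95772505, which is 202 bases ending 1 base before it. Capitals mark GC boxes (GGGCGG) and half-sites of the cAMP response element (TGACG), each searched on both strands, with overlapping matches counted.
KIF5C: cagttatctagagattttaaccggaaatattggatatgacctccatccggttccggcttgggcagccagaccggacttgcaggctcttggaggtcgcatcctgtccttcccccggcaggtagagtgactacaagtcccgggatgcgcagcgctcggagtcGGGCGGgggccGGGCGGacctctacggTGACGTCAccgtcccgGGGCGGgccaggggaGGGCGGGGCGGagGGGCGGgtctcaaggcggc
DYNC1I1: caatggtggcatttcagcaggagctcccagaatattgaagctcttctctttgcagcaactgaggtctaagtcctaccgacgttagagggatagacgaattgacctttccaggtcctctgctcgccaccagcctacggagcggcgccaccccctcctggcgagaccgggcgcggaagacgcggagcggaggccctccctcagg
The KIF5C stretch was 66.0% G and C and held 6 GC boxes. Its 2 half-sites overlap on opposite strands in one palindrome. Of 35116 promoter stretches of that length, 42.6% held a GC box and 21.2% a half-site. The DYNC1I1 stretch was 60.4% G and C and held neither motif, against 35.4% and 16.2% of stretches of its length. Neither stretch held the E-boxes CAGCTG or CAGATG, which 14.0% and 12.2% of stretches held at the KIF5C length and 11.3% and 10.2% at the DYNC1I1 length. A match is a run of letters and not a shown binding site. The promoter table had entries for 8 of the 10 members, and none for KIF21B or KIF5A.

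The libraries held 19368272 to 26758162 gene-assigned reads, and mitochondrial transcripts took 5.73 to 6.51% of them. Levels are given as scaled counts, the deposited reads per gene divided by one factor per library, and between genes only as scaled counts per kilobase of deposited gene length. Log2 fold changes come from one limma fit to log2(scaled count + 1) over the 6 libraries, are given ± SE, and were called where the Benjamini-Hochberg adjusted p over 28388 genes was below 0.05. ERCC8 stood at 61.8 and 57.2 in CSA knockdown, 186 and 215 in CSB knockdown and 219 and 217 in control cells, with a log2 fold change of -1.86 ± 0.13 in CSA knockdown versus control (adjusted p = 8.8e-07). ERCC6 stood at 618 and 611 in CSA knockdown, 258 and 302 in CSB knockdown and 615 and 593 in control cells, and fell in CSB knockdown versus control by 1.11 ± 0.08 on the log2 scale (adjusted p = 2.1e-06). Of 8 markers of noradrenergic neuroblasts all had reads in every group, and their summed scaled count was 79876.9 to 82391.7 in CSA knockdown, 79355.1 to 79442.1 in CSB knockdown and 73414.2 to 75855.0 in control cells. The glial marker SOX10 and the T cell marker CD3E were at 0 in all 6 libraries. These are bulk samples, in which fewer cells of a type and less RNA per cell cannot be told apart.

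The motor genes moved in both directions in each knockdown. In CSA knockdown versus control, 4 of the 10 rose (KIF5C, KIF5A, KLC1 and KIF3C), where 8.37% of all tested genes rose, and 4 fell (KIF21B, DYNC1I1, KIF3A and KIF21A), where 10.4% of all genes fell. This is 8 of 10 called, where 18.8% of all tested genes were called, and the median log2 fold change was 0.10 over the 10 and 0.0048 over all genes. The count was 2 without either control library or either CSB knockdown library, 3 without CSA knockdown replicate 2 and 8 without CSA knockdown replicate 1. For CSB knockdown against control, 3 rose (DYNC1I1, KIF3C and KIF5A), where 14.8% of all genes rose, and 3 fell (KIF5C, KIF1A and KIF21A), where 8.86% of all genes fell. This is 6 of 10 against 23.6% of all genes, with medians of 0.01 over the 10 and 0.10 over all genes. The median over the 10 is -0.06 with TMM scaling. The count was 2 without either control library or either CSB knockdown library and 7 without either CSA knockdown library. Between CSB knockdown and CSA knockdown, 4 rose (KIF21B, DYNC1I1, KIF3A and KIF3C), where 18.1% of all genes rose, and 3 fell (KIF5C, KIF1A and KLC1), where 11.3% of all genes fell. This is 7 of 10 against 29.4% of all genes. With TMM scaling, upper-quartile scaling, equal totals, edgeR or DESeq2, 4 rose and 5 fell, KIF1B and KIF5A being added, and without CSB knockdown replicate 2 only 4 were called. The comparisons with control share the control libraries. The shares of all genes, here and below, include genes with a mean scaled count near 1. The members lay at the 51.5th percentile or above per kilobase in control cells, and were chosen with earlier results of these data known. The shares are therefore no test of the members as a set. The libraries of the groups did not overlap for 10 of the 10 genes in CSA knockdown versus control (53.5% of all genes tested), 9 for CSB knockdown against control (58.7%) and 9 between the knockdowns (60.2%). 

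**Figure D1:**
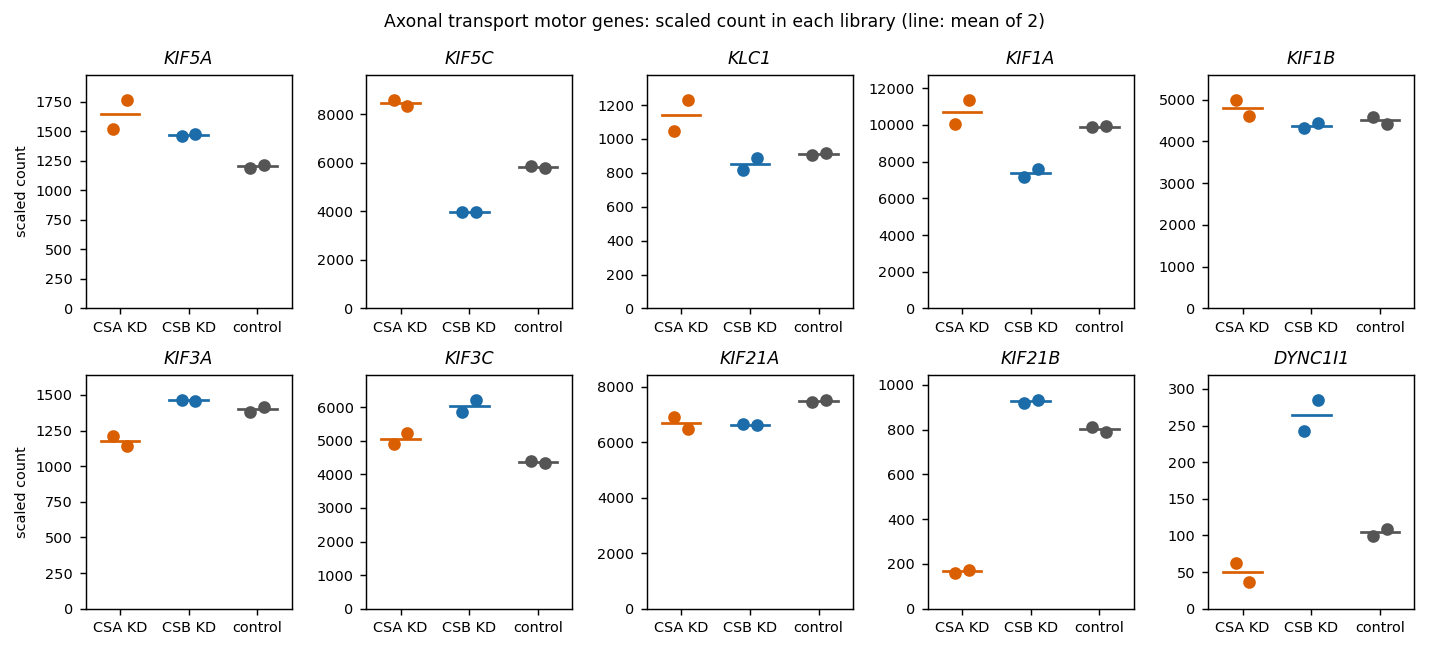
Scaled count of each of the 10 motor genes (vertical axes, linear from 0) in the libraries of CSA knockdown (CSA KD), CSB knockdown (CSB KD) and control cells; points are libraries and lines the mean of 2. KIF21B stands at 158 and 175 in CSA knockdown, against 811 and 791 in control, and KIF5C is highest in CSA knockdown and lowest in CSB knockdown.

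In kinesin-1, KIF5C went opposite ways in the knockdowns. KIF5C (chr2:148875250-149026759, plus strand; positions are those of the deposited tables on hg38) encodes a heavy chain that is enriched in neurons. It stood at 8600.7 and 8347.4 scaled counts in CSA knockdown, 3987.8 and 3971.6 in CSB knockdown and 5870.3 and 5782.7 in control cells. Both CSA knockdown libraries lay above the control libraries and both CSB knockdown libraries below them, with gaps of 2477.1 and 1794.9 scaled counts between the nearest libraries. The level rose in CSA knockdown versus control (log2 fold change 0.54 ± 0.05, adjusted p = 6.1e-06) and fell in CSB knockdown versus control (-0.55 ± 0.05, adjusted p = 4.7e-06). In CSB knockdown it was 0.47 times that in CSA knockdown (log2 fold change -1.09 ± 0.05, 95% interval -1.19 to -0.99, adjusted p = 5.9e-09). All 3 calls held in each of the 18 alternative settings tried. KIF5C overlaps 1 antisense gene, which had at most 14 reads in any library.

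KIF5A (chr12:57549998-57586632, plus strand), the heavy chain whose mutation causes a hereditary spastic paraplegia, was above control in both knockdowns. Its scaled counts were 1522.9 and 1768.1 in CSA knockdown, 1457.7 and 1476.8 in CSB knockdown and 1191.6 and 1216.3 in control cells. All 4 knockdown libraries lay above both control libraries. The log2 fold change against control was 0.45 ± 0.07 in CSA knockdown (adjusted p = 5.8e-04) and 0.29 ± 0.07 in CSB knockdown (adjusted p = 0.00915). The call in CSA knockdown was lost without either control library or either CSB knockdown library (adjusted p 0.0599 to 0.0857). The call in CSB knockdown was lost without either control library or either CSB knockdown library (0.143 to 0.213) and with TMM scaling (0.0544) or DESeq2 (0.0672). Between CSB knockdown and CSA knockdown, KIF5A differed by -0.16 (95% interval -0.31 to -0.01, adjusted p = 0.104). That difference passed in 7 of 18 alternatives, among them the fit without CSA knockdown replicate 1 (-0.27, adjusted p = 0.016) and TMM scaling (-0.25, adjusted p = 0.0204).

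KLC1 (chr14:103561896-103714249, plus strand) encodes a kinesin light chain, the part of kinesin-1 that binds many cargoes. It had scaled counts of 1044.9 and 1232.1 in CSA knockdown, 815 and 889 in CSB knockdown and 907 and 919 in control cells. The CSA knockdown libraries were the highest and the CSB knockdown libraries the lowest. KLC1 rose in CSA knockdown versus control (log2 fold change 0.31 ± 0.08, adjusted p = 0.0149), while CSB knockdown versus control gave -0.10 ± 0.08 (95% interval -0.27 to 0.07, adjusted p = 0.422). It fell in CSB knockdown versus CSA knockdown (-0.41 ± 0.08, adjusted p = 0.00151). The call against control was lost without either control library, either CSB knockdown library or CSA knockdown replicate 2 (adjusted p 0.128 to 0.232), and without that last library the log2 fold change was 0.19. The call between the knockdowns was lost without CSA knockdown replicate 2 or either CSB knockdown library (0.0571 to 0.134). KLC1 is the least certain member to count, because 9 listed genes overlap it and no source used here states whether the counting used strand. BAG5 and XRCC3, both on the opposite strand, had 1044 to 1385 and 513 to 744 reads per library. The longest GENCODE v29 transcript of KLC1 shares 45.0% of its 50-base stretches with transcripts of other genes or their reverse complements. XRCC3 is among these genes.

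Within the KIF5 heavy chains, the make-up shifted with KIF5C. Per kilobase, KIF5C took 43.9% ± 0.4 of the summed KIF5A, KIF5B and KIF5C level in CSA knockdown, 28.5% ± 0.5 in CSB knockdown and 35.9% ± 0.2 in control cells (SD, n = 2 each). KIF5B, the heavy chain found in most cell types, took 43.5% ± 2.1 in CSA knockdown, 56.1% ± 0.5 in CSB knockdown and 53.1% ± 0.049 in control cells. KIF5C was about level with KIF5B in CSA knockdown, and below it in CSB knockdown and control cells. KIF5A took 12.6% ± 1.7 in CSA knockdown, 15.5% ± 0.065 in CSB knockdown and 10.9% ± 0.2 in control cells. Per kilobase, KLC2 held most of the light chain level in every group. KLC1 took 9.82% ± 0.04 in CSA knockdown, 9.08% ± 0.60 in CSB knockdown and 10.9% ± 0.4 in control cells. Its level per kilobase rests on a deposited length of 19251 bases, against 15091 for its longest GENCODE v29 transcript.

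KIF1A (chr2:240713764-240820308, minus strand), the kinesin-3 motor of synaptic vesicle precursors and dense-core vesicles, differed from control in CSB knockdown. It had 10059.7 and 11374.3 scaled counts in CSA knockdown, 7168.6 and 7594.3 in CSB knockdown and 9872.8 and 9931.3 in control cells. Both CSB knockdown libraries lay below the other 4. The fall in CSB knockdown versus control was 0.745-fold in level (log2 fold change -0.42 ± 0.06, adjusted p = 2.8e-04), and in CSB knockdown versus CSA knockdown the log2 fold change was -0.54 ± 0.06 (adjusted p = 2.5e-05). CSA knockdown versus control gave 0.11 ± 0.06 (95% interval -0.02 to 0.24, adjusted p = 0.254). The call against control was lost without either control library or either CSB knockdown library (adjusted p 0.0596 to 0.0909), whereas the call between the knockdowns held in all 18 alternatives.

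KIF1B (chr1:10210805-10381603, plus strand), whose isoforms carry mitochondria and synaptic vesicle precursors, passed the test in no comparison. Its scaled counts were 5003.3 and 4620.5 in CSA knockdown, 4321.4 and 4442.7 in CSB knockdown and 4583.3 and 4423.6 in control cells. The CSB knockdown and control libraries overlapped. Against control, the log2 fold change was 0.09 ± 0.05 in CSA knockdown (adjusted p = 0.27) and -0.04 ± 0.05 in CSB knockdown (adjusted p = 0.665), and between CSB knockdown and CSA knockdown it was -0.13 ± 0.05 (adjusted p = 0.082). The last had a 95% interval of -0.25 to -0.02 and passed in 7 of 18 alternatives, among them TMM scaling (-0.22, adjusted p = 0.00736) and the fit without CSA knockdown replicate 2 (-0.19, adjusted p = 0.0457). Per kilobase, KIF1A made up 68.4% ± 2.1 of the KIF1A, KIF1B and KIF1C sum in CSA knockdown, 52.9% ± 0.3 in CSB knockdown and 65.0% ± 0.9 in control cells. KIF1C, a widely expressed relative, made up 10.1% ± 0.3 in CSA knockdown, 25.3% ± 0.061 in CSB knockdown and 14.3% ± 0.6 in control cells, so the KIF1A share was lowest where the KIF1C share was highest.

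**Figure D2:**
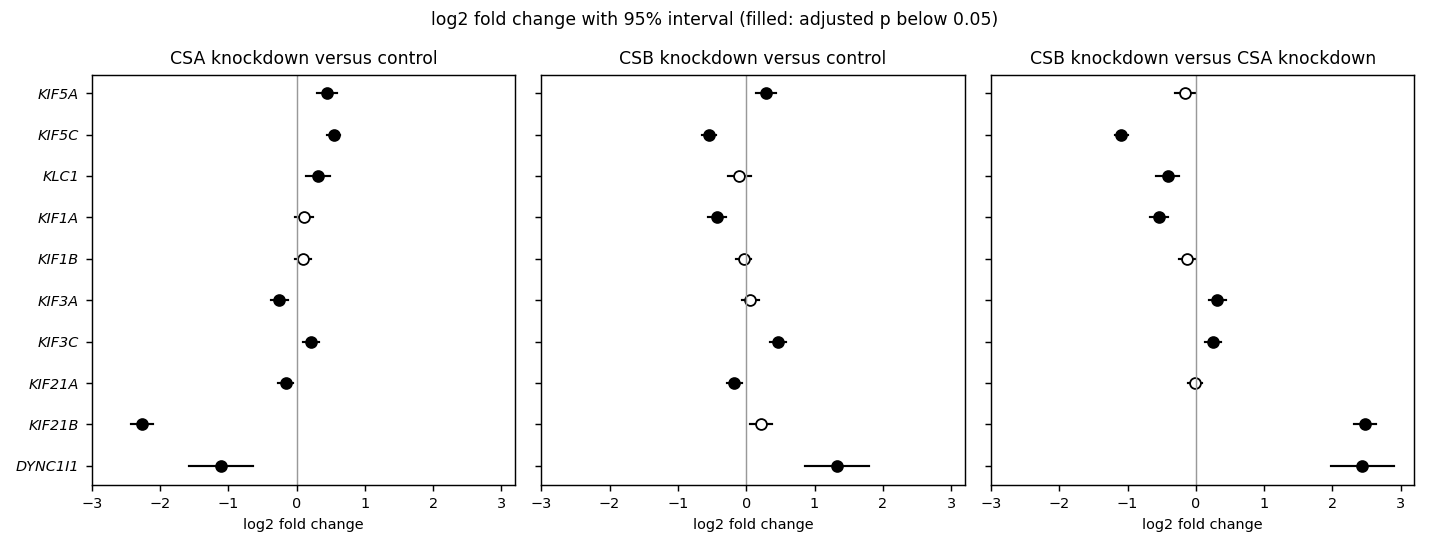
Log2 fold change (horizontal axes) of the 10 motor genes in CSA knockdown and in CSB knockdown, each against control, and in CSB knockdown against CSA knockdown; bars are 95% intervals and filled points passed the adjusted p threshold of 0.05. KIF5C lies at 0.54 and -0.55 in the comparisons with control, DYNC1I1 at -1.11 and 1.33, and KIF21B at -2.26 and 0.21.

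Among kinesin-2 subunits, KIF3C was above control in both knockdowns. KIF3C (chr2:25926596-25982749, minus strand) is a neuronal kinesin-2 subunit. Its scaled counts were 4898.1 and 5234.7 in CSA knockdown, 5854.0 and 6218.2 in CSB knockdown and 4411.2 and 4341.6 in control cells. The 3 groups did not overlap, with CSB knockdown highest. KIF3C rose against control in CSA knockdown (log2 fold change 0.21 ± 0.05, adjusted p = 0.0146) and in CSB knockdown (0.46 ± 0.05, adjusted p = 5.0e-05), and in CSB knockdown versus CSA knockdown (0.25 ± 0.05, adjusted p = 0.00286). The rise in CSB knockdown held in all 18 alternatives. That in CSA knockdown was lost without either control library, either CSB knockdown library or CSA knockdown replicate 2 (adjusted p 0.0831 to 0.201). The difference between the knockdowns was lost without CSA knockdown replicate 1 (0.0548) or CSB knockdown replicate 2 (0.101).

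KIF3A (chr5:132692628-132737638, minus strand), which pairs with KIF3B and the adaptor KIFAP3 in the motor that also builds cilia, had 1215.1 and 1138.7 scaled counts in CSA knockdown, 1465.4 and 1457.8 in CSB knockdown and 1383.5 and 1417.0 in control cells. It was lowest in both CSA knockdown libraries. KIF3A fell in CSA knockdown versus control (log2 fold change -0.25 ± 0.06, adjusted p = 0.00747) and rose in CSB knockdown versus CSA knockdown (0.31 ± 0.06, adjusted p = 9.7e-04). CSB knockdown versus control gave 0.06 ± 0.06 (95% interval -0.06 to 0.18), and -0.0105 with TMM scaling. The fall in CSA knockdown was lost without either control library, either CSB knockdown library or CSA knockdown replicate 2 (adjusted p 0.0519 to 0.126), and the rise between the knockdowns without CSB knockdown replicate 2 (0.051). Per kilobase, KIF3C made up 56.6% ± 1.9 of the KIF3A, KIF3B and KIF3C sum in CSA knockdown, 61.8% ± 0.3 in CSB knockdown and 56.3% ± 0.1 in control cells. KIF3A made up 12.3% ± 0.7 in CSA knockdown, 14.0% ± 0.6 in CSB knockdown and 16.8% ± 0.5 in control cells.

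KIF21B had the largest absolute log2 fold change of the 10 in CSA knockdown versus control, and between the knockdowns it was close to DYNC1I1. The gene (chr1:200969390-201023700, minus strand) encodes a kinesin-4 of neurons that limits the growth of microtubules. It stood at 158 and 175 scaled counts in CSA knockdown, 920 and 933 in CSB knockdown and 811 and 791 in control cells. Both CSA knockdown libraries lay far below the other 4, with a gap of 616 scaled counts to the nearest control library. The level in CSA knockdown was 0.209 times that in control cells (log2 fold change -2.26 ± 0.07, 95% interval -2.42 to -2.10, adjusted p = 5.6e-09). Only 141 of the 28388 genes tested had a larger absolute log2 fold change in that comparison. In CSB knockdown versus CSA knockdown the level was 5.55-fold higher (2.47 ± 0.07, adjusted p = 3.6e-10), and 270 genes had a larger absolute change. Both calls held in all 18 alternatives. CSB knockdown versus control gave 0.21 ± 0.07 (95% interval 0.05 to 0.37, adjusted p = 0.0588), which passed in 5 of 18 alternatives, among them the fits without CSA knockdown replicate 1 (0.031) or 2 (0.0317) and with only those 2 groups in the fit (0.0111).

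KIF21A (chr12:39293228-39443390, minus strand), a kinesin-4 whose mutation causes a congenital disorder of the eye-muscle nerves, had 6894.7 and 6477.3 scaled counts in CSA knockdown, 6642.3 and 6615.0 in CSB knockdown and 7427.0 and 7519.9 in control cells. All 4 knockdown libraries lay below both control libraries, and the CSB knockdown and CSA knockdown libraries overlapped. The log2 fold change against control was -0.16 ± 0.05 in CSA knockdown (adjusted p = 0.0381) and -0.17 ± 0.05 in CSB knockdown (adjusted p = 0.0224). The first was lost in 9 of 18 alternatives, among them either control library, either CSB knockdown library or CSA knockdown replicate 2 left out (adjusted p 0.0888 to 0.254) and TMM scaling (0.0607). The second was lost without either control library or either CSB knockdown library (0.158 to 0.198). CSB knockdown versus CSA knockdown gave -0.01 (95% interval -0.12 to 0.10). Per kilobase, KIF21B took 2.03% ± 0.22 of the KIF21A and KIF21B sum in CSA knockdown, 10.4% ± 0.1 in CSB knockdown and 8.19% ± 0.20 in control cells.

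DYNC1I1 (chr7:95772506-96110322, plus strand), the dynein intermediate chain found mainly in neurons, differed from control with opposite signs. It stood at 62.9 and 36.2 scaled counts in CSA knockdown, 243 and 285 in CSB knockdown and 99.5 and 109 in control cells, from 38 to 345 reads per library. The groups did not overlap, with CSB knockdown highest and CSA knockdown lowest, and the CSA knockdown pair stood apart from each other more than any other pair of this gene in relative terms. The log2 fold change was -1.11 ± 0.21 in CSA knockdown versus control (adjusted p = 0.00282) and 1.33 ± 0.21 in CSB knockdown versus control (adjusted p = 6.4e-04). In CSB knockdown it was 5.42-fold that in CSA knockdown (2.44 ± 0.21, 95% interval 1.97 to 2.90, adjusted p = 2.7e-06), which held in all 18 alternatives. The fall in CSA knockdown was -0.72 without CSA knockdown replicate 2 (adjusted p = 0.0674), -1.50 without replicate 1, and was also lost without either control library or either CSB knockdown library (0.109 to 0.159). The rise in CSB knockdown was lost without either control library or either CSB knockdown library (0.0712 to 0.155). Per kilobase, DYNC1I1 took 1.80% ± 0.61 of the DYNC1I1 and DYNC1I2 sum in CSA knockdown, 9.22% ± 1.04 in CSB knockdown and 3.96% ± 0.20 in control cells, so DYNC1I2, the broadly expressed chain, was over 90% of the pair in most libraries and 90.0% at its lowest.

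**Figure D3:**
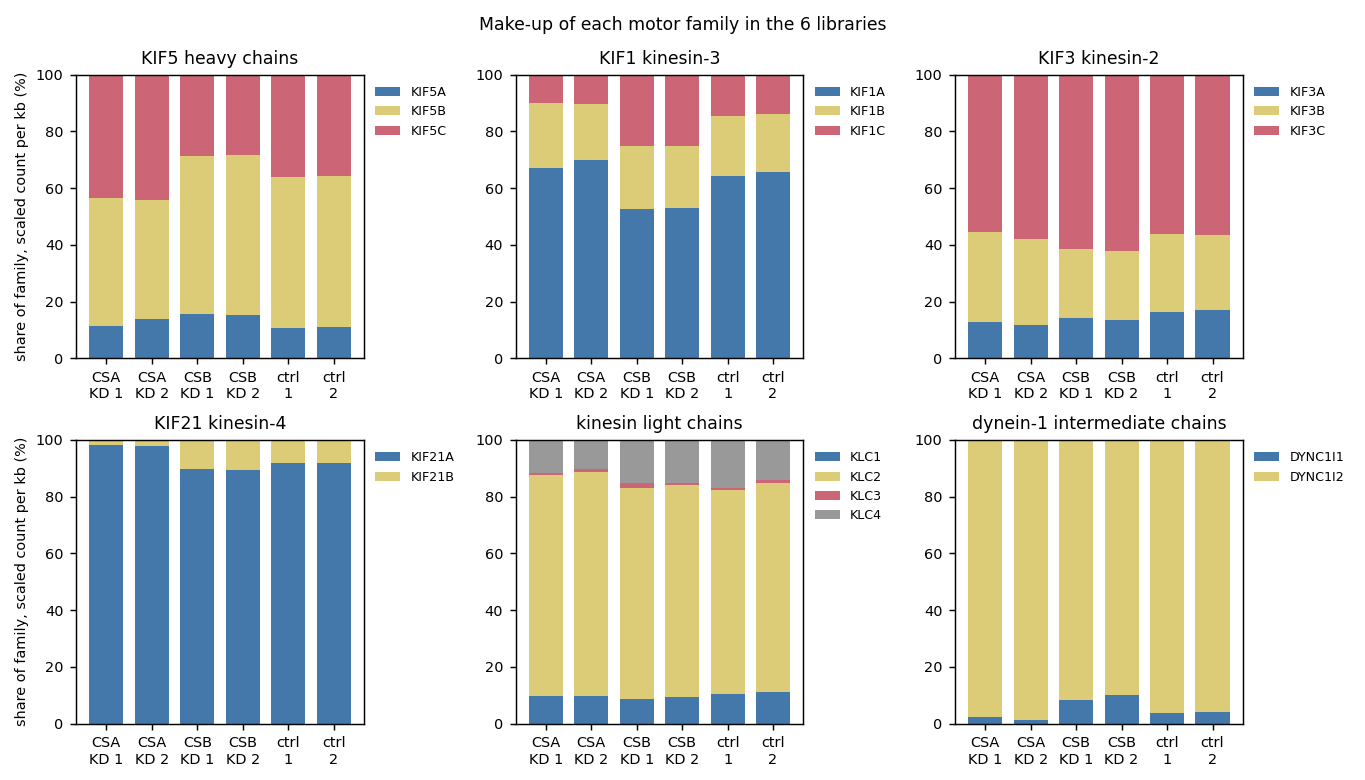
Share of each family's summed scaled count per kilobase (vertical axes, percent, stacked to 100) held by each gene in the 2 libraries of CSA knockdown, CSB knockdown and control cells (ctrl). KIF5C takes 43.7 and 44.2% of the KIF5 sum in CSA knockdown, 28.8 and 28.2% in CSB knockdown and 36.1 and 35.8% in control.

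Ordered by scaled count per kilobase, the control cells ran from KIF1A at 801 ± 3 through KIF21A (739), KIF3C (683), KIF5C (632), KIF1B (254), KIF3A (204), KIF5A (192), KIF21B (65.9) and KLC1 (47.4) to DYNC1I1 at 22.8 ± 1.5 (SD, n = 2). No neighbours in that order overlapped between the control libraries. KIF1A lay at the 96.5th percentile of all genes tested in control cells and DYNC1I1 at the 51.5th. In CSA knockdown KIF5C led at 920 ± 19, overlapping KIF1A (867 ± 75), which overlapped KIF3C (791 ± 37). KIF1B and KIF5A overlapped in CSA knockdown, as did KIF21B (13.7 ± 0.9) and DYNC1I1 (10.8 ± 4.1). In CSB knockdown KIF3C led at 943 ± 40, followed by KIF21A (655) and KIF1A (597), KIF5C stood 4th at 432 ± 1, and no neighbours overlapped. KLC1 was last in CSB knockdown at 44.3 ± 2.7, below DYNC1I1 at 57.8 ± 6.4. The order of these 2 genes rests on deposited lengths of 19251 bases for KLC1 and 4568 for DYNC1I1. The rest of the order and the family shares rest on deposited lengths as well. These exceed the longest GENCODE v29 transcript by uneven amounts. They are 12357 against 9218 bases for KIF1A, 10114 against 6601 for KIF21A, 6403 against 5344 for KIF3C and 9215 against 6931 for KIF5C. With other lengths, genes close in level could change places.

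Among other genes of the transport machinery, the counts are read against all genes tested, of which 8.37% rose and 10.4% fell in CSA knockdown versus control and 14.8% rose and 8.86% fell in CSB knockdown versus control. Of 11 other transport kinesins and light chains, 3 rose and 1 fell in CSA knockdown. In CSB knockdown 3 rose and 1 fell, the falls being near the share of all genes, and TMM scaling gave 1 rise and 2 falls. In CSA knockdown KLC2 (log2 fold change 0.57 ± 0.07, adjusted p = 1.8e-04), KIF3B (0.41 ± 0.06, adjusted p = 2.2e-04) and KIF13B (0.31 ± 0.07, adjusted p = 0.0124) rose, and KIF1C fell (-0.47 ± 0.07, adjusted p = 3.6e-04). In CSB knockdown KIF1C rose (0.69 ± 0.07, adjusted p = 1.4e-05), and KIF13A (0.19) and KIF3B (0.17) rose less and lost the call with TMM scaling. KIFAP3, the adaptor of the KIF3A and KIF3B pair, fell in CSB knockdown (-0.81 ± 0.07, adjusted p = 6.4e-06), with 555 and 497 scaled counts against 893 and 955 in control cells. The list's median log2 fold change was -0.01 in CSA knockdown versus control and 0.17 in CSB knockdown versus control.

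Of 13 other dynein-1 subunits and regulators, 3 rose and 2 fell in each comparison with control, against 8.37% and 10.4% of all genes in CSA knockdown and 14.8% and 8.86% in CSB knockdown. In CSB knockdown TMM scaling gave 1 and 3. NDE1, a regulator of dynein that cells also need in mitosis, fell in CSA knockdown (-0.60 ± 0.06, adjusted p = 2.2e-05) and rose in CSB knockdown (0.31 ± 0.06, adjusted p = 0.00273). Its scaled counts were 596 and 624 in CSA knockdown, 1118.6 and 1177.3 in CSB knockdown and 927 and 927 in control cells. The light chain DYNLL1 fell in both, with log2 fold changes of -0.42 in CSA knockdown and -0.19 in CSB knockdown, and its relative DYNLL2 rose in CSA knockdown (0.39) and fell in CSB knockdown (-0.18). The light intermediate chain DYNC1LI2 (0.29) and the light chain DYNLT1 (0.25) rose in CSA knockdown. NDEL1 (0.28) and the heavy chain DYNC1H1 (0.17) rose in CSB knockdown. The call of DYNC1H1 was lost in 13 of 18 alternatives, among them each left-out library, TMM scaling (adjusted p = 0.279) and no filter (0.0602), and that of NDEL1 in 6. DESeq2 called none of the 3 rises in CSB knockdown, with an adjusted p of 0.0513 for NDE1.

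Dynactin, the activator that dynein needs for long runs, had 9 subunits on the list. In CSA knockdown versus control ACTR1B (0.32), DCTN2 (0.28) and DCTN1 (0.18) rose and DCTN4 fell (-0.28). In CSB knockdown versus control limma called 0 rises and DCTN5 fell (-0.25 ± 0.05, adjusted p = 0.00266). At an unadjusted p under 0.05, 3 dynactin subunits were higher and 3 lower there, and edgeR and DESeq2 called 0 rises as well. The falls depended on the scaling, with 3 under TMM scaling and edgeR and 2 under upper-quartile scaling, equal totals and DESeq2, DCTN1 among them in each. Of 24 adaptors that join motors to cargo, 23 were listed in the files, of which 6 rose and 4 fell in CSA knockdown and 10 rose and 6 fell in CSB knockdown, with 7 and 6 there under TMM scaling. Of all genes, 8.37% rose and 10.4% fell in CSA knockdown, and 14.8% rose and 8.86% fell in CSB knockdown. The kinesin-1 scaffolds MAPK8IP1 (0.68 ± 0.06, adjusted p = 4.9e-06), MAPK8IP2 (0.46) and MAPK8IP3 (0.38) led the rises in CSA knockdown. In CSB knockdown MAPK8IP3 rose (0.49 ± 0.08, adjusted p = 4.6e-04), while MAPK8IP1 (-0.19) and MAPK8IP2 (-0.24) fell. The dynein adaptors HOOK1 (-0.53), HOOK3 (-0.27) and BICD2 (-0.23) led the falls in CSA knockdown. In CSB knockdown SYBU, a kinesin-1 linker for syntaxin vesicles, fell by 1.04 ± 0.16 (adjusted p = 4.9e-04) and the dynein adaptor BICD1 fell by 0.46 ± 0.06 (adjusted p = 1.4e-04). PLEKHM2, which links lysosomes to kinesin-1, rose there (0.40 ± 0.06, adjusted p = 2.5e-04), and so did the mitochondrial adaptor TRAK2 (0.32). Among the genes named from these lists and the mitotic kinesins, calls held in all 18 alternatives for KIF3B, DYNLL1, NDE1, MAPK8IP1, KIF15, KIF20A and KIF4A in CSA knockdown and for KIFAP3, BICD1 and SYBU in CSB knockdown. The others were lost with at least 1 library left out.

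**Figure D4:**
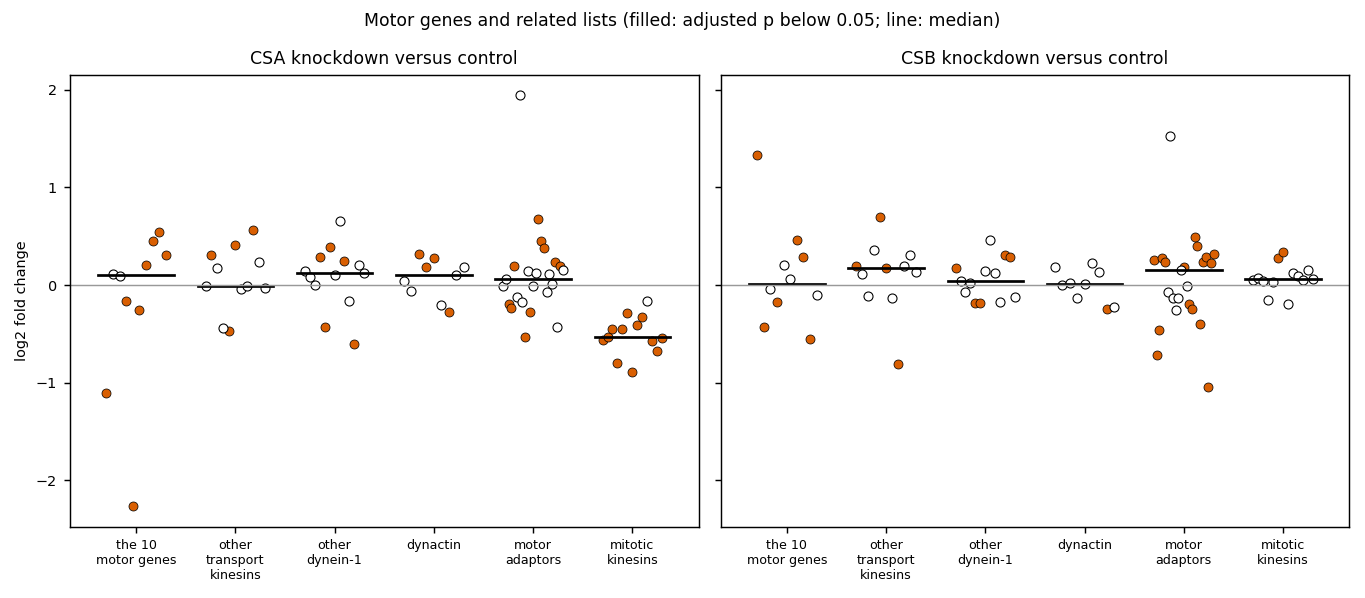
Log2 fold change (vertical axis) in CSA knockdown versus control and CSB knockdown versus control of the 10 motor genes and the genes of 5 related lists; filled points passed the adjusted p threshold of 0.05 and lines are medians. The mitotic kinesins have a median of -0.53 in CSA knockdown and 0.06 in CSB knockdown, against 0.10 and 0.01 for the 10 motor genes.

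Kinesins of cell division differed between the groups as well. In CSA knockdown versus control 12 of 13 mitotic kinesins fell and 0 rose with limma, edgeR and DESeq2 (0 higher at an unadjusted p under 0.05), with a median log2 fold change of -0.53, against 0.0048 over all genes tested. KIF20A (-0.89 ± 0.05, adjusted p = 4.0e-07), KIF15 (-0.79 ± 0.06, adjusted p = 2.1e-06) and KIF4A (-0.67 ± 0.07, adjusted p = 1.9e-05) fell most. In CSB knockdown versus control KIF20A (0.33) and KIF18B (0.28) rose and 0 fell (2 lower at an unadjusted p under 0.05), with a median of 0.06 against 0.10 over all genes. TMM scaling, edgeR and DESeq2 each gave 2 rises and 2 falls. In CSB knockdown versus CSA knockdown all 13 rose (11 with TMM scaling), where 18.1% of all genes tested rose. Of all genes tested, 10.4% fell and 8.37% rose in CSA knockdown versus control. The shares in CSB knockdown versus control were 8.86% and 14.8%. The summed scaled count of the 13 was 14656.9 to 14709.6 in CSA knockdown, 22230.1 to 22408.3 in CSB knockdown and 20447.2 to 20986.8 in control cells. Fibroblast-type markers were also lowest in CSA knockdown by their sum, with 0 of 6 rising and 4 falling in CSA knockdown versus control. In CSB knockdown versus control 4 of them rose and 0 fell. At an unadjusted p under 0.05, limma gave 0 higher and 5 lower in CSA knockdown and 4 higher and 0 lower in CSB knockdown, and edgeR and DESeq2 also called 0 rises in CSA knockdown and 0 falls in CSB knockdown. Their summed scaled count was 6714.7 to 6946.7 in CSA knockdown, 13727.2 to 14516.2 in CSB knockdown and 11247.0 to 11586.5 in control cells, with none of the 6 at 0. DYNC1I1 was lowest in CSA knockdown and highest in CSB knockdown, as the fibroblast-type sum was, and KIF5C ran in reverse. Both passed the test in all 3 comparisons. The libraries of KIF21B and KIF3A ran in the DYNC1I1 order and those of KIF1A and KLC1 in reverse. None of these genes passed in all 3 comparisons. The part of dividing or fibroblast-type cells in the levels of the motor genes was not tested.

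For each member, the gene with the nearest pattern over the 6 libraries was found among 13396 genes whose mean scaled count was 50 or more, by Euclidean distance between centred log2(scaled count + 1) values. KIF5C lay nearest to MMP16, at a distance of 0.09, and KIF1A nearest to CELSR2, at 0.06. MMP16 had scaled counts of 2251.3 and 2199.1 in CSA knockdown, 1074.6 and 1064.3 in CSB knockdown and 1656.1 and 1567.4 in control cells. KIF21B and DYNC1I1 lay farther from their nearest genes. The distance is not scaled to the size of a gene's changes, so members that change more can lie farther from any gene. Between the knockdowns KIF21B and DYNC1I1 had the largest absolute log2 fold changes of the members. The nearest to KIF21B was AIF1L, at 0.38, and the nearest to DYNC1I1 was SNAI2, at 0.44, with 183 and 136 in CSA knockdown, 1044.8 and 1009.8 in CSB knockdown and 394 and 366 in control cells. The others lay at 0.04 to 0.09 from PPP4R1 (KIF1B), APPBP2 (KIF3A), NARS (KIF21A), C17orf62 (KIF3C), MTCL1 (KIF5A) and SEZ6L2 (KLC1). Among the members themselves, KIF21B and DYNC1I1 were each other's nearest, while the nearest to KIF5C was KIF1A. Being nearest of the members does not make the patterns alike. KIF21B averaged 166 in CSA knockdown, 927 in CSB knockdown and 801 in control cells, and DYNC1I1 averaged 49.6, 264 and 104 in that order.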

How the data were processed

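Per the submitters' processing notes, FastQC and HISAT2 2.0.4 were used with build hg38. How reads were counted and normalized, with which annotation and strand setting, is not given in the sources used. Per the file headers the values are FPKM. However, 100% of them were whole multiples of the smallest value in their library (tolerance 0.01 of that step). The deposited unit is thus a signal, gene read counts divided by one factor per library, without gene length. Reads per gene were recovered by that division, and a gene not listed in a library was taken as 0.

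The genes tested had a scaled count averaging 1 or more in 1 group or more, and the test was limma 3.58.1 (R 4.3.3) with a mean-variance trend, 6 libraries in one fit with 3 residual degrees of freedom, Benjamini-Hochberg adjustment and a threshold of 0.05. The pseudocount of 1 makes fold changes of genes with few reads smaller than the ratio of levels. Alternatives were other pseudocounts, filters and scalings, removal of the gene length trend, only the groups compared, a replicate block, edgeR 4.0.16 and DESeq2 1.42.0 on recovered reads, and each library left out.

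The members and the gene lists were chosen with earlier results of these data known. Genes named beside the 10 members were the hairpin targets, up to 3 largest rises and falls past the threshold in each list and comparison with control, the gene with the nearest pattern and overlapping genes. Outside this rule, KIF5B, DYNC1I2 and markers at 0 were named after their values were seen, to complete a family or a marker list. BICDL1 had no entry in the tables. Single genes that this rule names but that are withheld are not reported here. Gene positions and lengths are those of the deposited tables. Genes sharing stretches of 50 bases were sought in GENCODE v29 transcripts and their reverse complements.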

Additional observations from a re-analysis of the deposited data

How the results depend on the processing

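Of 18 alternatives, 6 left out one library each and 12 changed another choice. Leaving out one library gave 2 to 8 called motor genes in CSA knockdown versus control (8 with all libraries), 2 to 7 in CSB knockdown versus control (6) and 4 to 7 in CSB knockdown versus CSA knockdown (7), and over all genes 1643 to 3201 (5334), 1971 to 5901 (6706) and 4144 to 6446 (8340) calls. In these fits the spread rests on fewer samples. The 12 other alternatives moved none of these counts by more than 1.5 times. They did move the share of higher calls in CSB knockdown versus control, which was 62.5%, to 48.2% with TMM scaling, 51.3% with equal totals, 50.1% with edgeR and 43.4% with DESeq2, and in CSB knockdown versus CSA knockdown, 61.5%, to 48.9%, 52.5%, 48.9% and 48.2%. The median log2 fold change of all genes was 0.10 and 0.09 in these comparisons, and 0.03 and 0.0098 with TMM scaling.

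Deviations of same-numbered libraries from their group means were not correlated (-0.04, -0.03 and -0.03 over 13397 genes). This cannot show whether the numbers mark a shared culture or day, which the labels leave unstated. With a replicate block, 7 motor genes and 5259 genes were called in CSA knockdown versus control, 6 and 6575 in CSB knockdown versus control and 7 and 8258 in CSB knockdown versus CSA knockdown, and KIF21A lost its call in CSA knockdown versus control (adjusted p = 0.0625).

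Signs turned only in differences that had not passed the test, and the cause was not tested. In CSB knockdown versus control, the log2 fold changes with TMM scaling, edgeR and DESeq2 were -0.0105, -0.0101 and -0.0258 for KIF3A, -0.0472, -0.048 and -0.0631 for ACTR1B, -0.0613, -0.0592 and -0.0752 for DCTN2 and -0.0499, -0.0493 and -0.0649 for DYNC1LI2. Upper-quartile scaling and equal totals gave -0.0152 and -0.0347 for ACTR1B, -0.0293 and -0.0487 for DCTN2 and -0.0179 and -0.0374 for DYNC1LI2. In CSA knockdown versus control, TMM scaling, upper-quartile scaling and edgeR gave 0.0036, 0.0077 and 0.0039 for KIF13A and 0.0033, 0.0074 and 0.0032 for KIFAP3, and removal of the length trend 0.0043 for KIFAP3. That removal gave 0.0039 for KIF21A in CSB knockdown versus CSA knockdown. With one library left out, the values ran from -0.0568 to 0.0333 for KIF21A in CSB knockdown versus CSA knockdown. In CSA knockdown versus control they ran from -0.0003 to 0.0509 for ERCC6 and -0.0605 to 0.0359 for KIFAP3, and in CSB knockdown versus control from -0.008 to 0.0585 for ACTR1B and -0.0251 to 0.0475 for DCTN2.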
